A study of Homo sapiens with 12 samples.

Results

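The expression of 35 genes of cholesterol and fatty acid synthesis, chosen by gene symbol from the 58735 rows of each deposited count table, was examined in neuroblastoma cells after Erastin treatment. All 35 were listed once in both tables and all 35 passed the filter on low counts in every comparison. They were grouped as 5 regulators, a sterol branch of 19 genes, a fatty acid branch of 9 genes, and STARD4 and LPIN1, which belong to neither branch. RNA was sequenced from the human neuroblastoma cell lines KELLY, which carries MYCN amplification, and SK-N-AS, which does not, each with 3 samples given the vehicle DMSO and 3 given Erastin, which blocks system Xc, the transporter that imports cystine in exchange for glutamate. KELLY received 1 µM and SK-N-AS 2 µM, and all 12 samples were collected at 24 h. Line and dose differ together, so their effects cannot be told apart. The total count per sample lay between 24169796 and 29835670. Each line stands for 1 established culture, and the methods describe wells seeded in triplicate, so the p-values measure the spread between these samples, which may be technical. In bulk RNA, fewer cells with a transcript and less of it per cell cannot be told apart.

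Cells make cholesterol from acetyl-CoA through mevalonate, farnesyl diphosphate, squalene and lanosterol, and make fatty acids from the same acetyl-CoA through malonyl-CoA. Both routes are controlled by the sterol regulatory element binding proteins (SREBPs), membrane-bound transcription factors that SCAP escorts from the endoplasmic reticulum to the Golgi, where proteases release the active part. When sterols are abundant, INSIG proteins hold SCAP and its cargo in the endoplasmic reticulum and the target genes are transcribed less. SREBP-2, encoded by SREBF2, acts mainly on sterol genes, and SREBP-1c, a product of SREBF1, mainly on fatty acid genes. Polyunsaturated fatty acids in membranes are the substrate of the lipid peroxidation that marks ferroptosis, the form of cell death that Erastin can start.

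The promoters of 6 members are printed because these genes carry the results below or hold the motifs known from SREBP targets. Each is the window from 250 bases before to 50 after a transcription start in RefSeq (GRCh38.p14), read from the coding strand, with matches to the sterol regulatory element core TCACNCCAC, the E-box CACGTG or the CCAAT box (ATTGG on the other strand) in capitals. No match shown overlaps another.
SREBF2, chr22:41832855-41833154 (plus strand): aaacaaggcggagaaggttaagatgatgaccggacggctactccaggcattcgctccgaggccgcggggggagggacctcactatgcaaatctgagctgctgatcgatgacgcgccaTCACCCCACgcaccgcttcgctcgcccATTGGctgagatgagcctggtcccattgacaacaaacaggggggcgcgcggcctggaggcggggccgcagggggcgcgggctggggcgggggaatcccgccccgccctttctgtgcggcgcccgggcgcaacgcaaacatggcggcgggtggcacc
INSIG1, chr7:155297628-155297927 (plus strand): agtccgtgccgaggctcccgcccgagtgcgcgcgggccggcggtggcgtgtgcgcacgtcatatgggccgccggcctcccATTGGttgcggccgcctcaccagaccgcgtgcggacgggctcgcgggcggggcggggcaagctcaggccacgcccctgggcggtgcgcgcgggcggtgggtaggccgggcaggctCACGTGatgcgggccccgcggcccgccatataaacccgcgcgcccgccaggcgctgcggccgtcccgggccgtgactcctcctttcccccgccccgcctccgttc
HMGCS1, chr5:43313363-43313662 (minus strand): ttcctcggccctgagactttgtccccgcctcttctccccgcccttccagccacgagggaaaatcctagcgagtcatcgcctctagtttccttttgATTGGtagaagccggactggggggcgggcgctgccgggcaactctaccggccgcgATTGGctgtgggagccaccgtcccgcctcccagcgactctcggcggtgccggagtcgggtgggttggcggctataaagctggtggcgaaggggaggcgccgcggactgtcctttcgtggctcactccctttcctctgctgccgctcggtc
MVK, chr12:109573544-109573843 (plus strand): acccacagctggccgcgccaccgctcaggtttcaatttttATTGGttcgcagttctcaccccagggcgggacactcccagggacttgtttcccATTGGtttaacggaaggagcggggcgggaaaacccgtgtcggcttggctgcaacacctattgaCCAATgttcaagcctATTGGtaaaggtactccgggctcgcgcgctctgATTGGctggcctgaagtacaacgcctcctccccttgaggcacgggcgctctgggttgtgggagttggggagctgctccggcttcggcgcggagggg
MSMO1, chr4:165327419-165327718 (plus strand): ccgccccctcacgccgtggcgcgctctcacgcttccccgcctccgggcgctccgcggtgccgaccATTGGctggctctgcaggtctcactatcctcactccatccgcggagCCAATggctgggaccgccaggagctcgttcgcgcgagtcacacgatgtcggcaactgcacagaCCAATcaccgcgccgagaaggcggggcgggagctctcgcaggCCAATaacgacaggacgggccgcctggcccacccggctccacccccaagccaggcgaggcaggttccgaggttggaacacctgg
FADS2, chr11:61816154-61816453 (plus strand): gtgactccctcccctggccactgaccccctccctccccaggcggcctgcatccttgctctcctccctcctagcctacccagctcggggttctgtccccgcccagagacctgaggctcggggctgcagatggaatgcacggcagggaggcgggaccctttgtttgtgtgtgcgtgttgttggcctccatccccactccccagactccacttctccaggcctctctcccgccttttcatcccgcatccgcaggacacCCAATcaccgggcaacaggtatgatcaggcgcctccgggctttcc

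The table of promoters held 45 windows for 31 of the 35 members, and none for ACAT2, FASN, FDFT1 and SQLE. A CCAAT box was present in 27 of the 45 windows (60.0%) against 34.6% of all 35116 windows. By group it was found in 16 of 23 windows of the sterol branch, in 8 of 12 of the fatty acid branch and in 2 of 6 of the regulators. MVK and NSDHL held 5 matches in 1 window, and MSMO1 held 4. The E-box was found in 6 of the 45 windows (13.3%) against 7.26% of all windows, INSIG1 and SCAP among them. The element core occurred in the window of SREBF2 and in no other member's window, and in 1.13% of all windows. Windows of 1 gene can overlap, so the E-box of SC5D and the CCAAT boxes of ACLY were each counted in 2 windows. These are counts of letters on either strand, not of bound sites.

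The lines matched their labels. MYCN stood at 5124, 5750.2 and 5131 CPM (the read count scaled to a common library size, with TMM factors over all 12 libraries) in the KELLY DMSO samples and below 1 CPM in each SK-N-AS sample. The summed level of 7 adrenergic markers, among them PHOX2A, TH and DBH, ran from 2350 to 3801 CPM in KELLY with DMSO and from 3422 to 5196 CPM with Erastin, and from 920.2 to 1032 CPM over the SK-N-AS samples. That of 6 mesenchymal markers, among them VIM and PRRX1, ran from 110 to 165 CPM over the KELLY and from 2275 to 2669 CPM over the SK-N-AS samples. The part of these shifts within KELLY in the results below was not tested. Of 8 blood cell markers, 7 were at or below 8.17 CPM in every sample, and PTPRC alone was high, at 491, 539 and 625 CPM in the SK-N-AS DMSO samples. Even within a group, libraries leaned towards GC-rich or GC-poor genes to different degrees. Each library was set against the average of its line as a log2 ratio, and over 9871 genes Spearman's correlation of this ratio with exon GC content in KELLY was -0.84, 0.75 and -0.52 with DMSO and 0.87, -0.71 and 0.28 with Erastin, and the KELLY log2 fold changes followed GC content at 0.79. In SK-N-AS the fold changes followed it at -0.14 over 9797 genes. Values fitted after the trend of each library was removed are given beside many of the results, and beside each member whose sign turned in KELLY. No sign turned in SK-N-AS.

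Erastin against DMSO was tested in each line by edgeR's quasi-likelihood test over all genes that passed the filter. In KELLY, none of the 35 members passed a Benjamini-Hochberg adjusted p of 0.05, where 0.00615% of the 16258 genes tested did. The study's methods used a fold change of at least 1.5 together with an unadjusted p no larger than 0.05, and by this rule 3 members of the sterol branch were lower with Erastin, against 0.744% of all genes. They were HMGCS1, IDI1 and HSD17B7, and no member was higher. The count of members in either direction was 0 without DMSO replicate 1 or Erastin replicate 1, 1 without Erastin replicate 3 and 6 without DMSO replicate 2 or Erastin replicate 2. Over all genes, 209 rises and 121 falls met the rule with all 6 libraries. Without DMSO replicate 2 there were 734 and 262 of 16859, and without Erastin replicate 2 there were 436 and 197 of 16691. There were 149 and 69 of 16741 without DMSO replicate 1, and 112 and 85 of 16735 without Erastin replicate 1. Leaving out Erastin replicate 3 gave 178 and 70 of 16697. At an unadjusted p under 0.05 alone, 5 members were lower (14.3%), those 3 with INSIG1 and FDFT1, against 1.06% of all genes, and none was higher. These 5 have GC contents from 41.8% to 49.1%, and the KELLY shares over all genes were not matched for GC content, which the fold changes followed at 0.79. With the GC trend removed, 0 members met the rule of the methods in KELLY, where 176 rises and 146 falls of 16258 genes did. In SK-N-AS, none of the 35 passed the adjusted threshold either, where 0.659% of the 16095 genes tested did. DESeq2 and limma-voom also called 0 members in each line. None met the rule of the methods, which 1.33% of all genes met as falls. At an unadjusted p under 0.05, 12 members were lower (34.3%), against 4.87% of all genes, and none was higher. The log2 fold change was negative for 32 of the 35 in SK-N-AS and for 17 of the 35 in KELLY, where 52.4% and 49.5% of all genes tested had a negative value.

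With the GC trend removed, edgeR called 12 members in SK-N-AS at an adjusted p under 0.05, all of them lower with Erastin (34.3%), against 2.93% of all genes called as falls. Of these, 9 belonged to the sterol branch (HMGCS1, MVK, IDI1, FDPS, FDFT1, SQLE, LSS, MSMO1 and DHCR7), 2 to the fatty acid branch (ELOVL6 and FADS2), and INSIG1 was the only regulator. With 1 library left out as well, the number lay between 3 and 14, being 3 without DMSO replicate 2 or Erastin replicate 3, 4 without Erastin replicate 2 and 5 without Erastin replicate 1. HMGCS1 and INSIG1 passed in all 6 of these fits. Falls called over all genes ran from 155 of 16502 (without Erastin replicate 3) to 657 of 16433 (without DMSO replicate 3). With the trend left in, 10 members passed without DMSO replicate 3 and 1 without DMSO replicate 1. Over all genes, the first of these fits called 289 rises and 566 falls of 16433, and the second 96 and 59 of 16395. With all 6 libraries there were 74 and 32 of 16095. In KELLY, HMGCS1 was the only member called once the trend was removed, against 0.0123% of all genes called as falls, and it lost the call when any of the 6 libraries was left out. Of the 35 members, 17 had a negative KELLY fold change before and 29 after this step, against 49.5% and 51.6% of all genes. How well the removal works in KELLY, where the trend differed between the groups, was not tested. The plot of fold changes by member shows both sets of values.

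**Figure D1:**
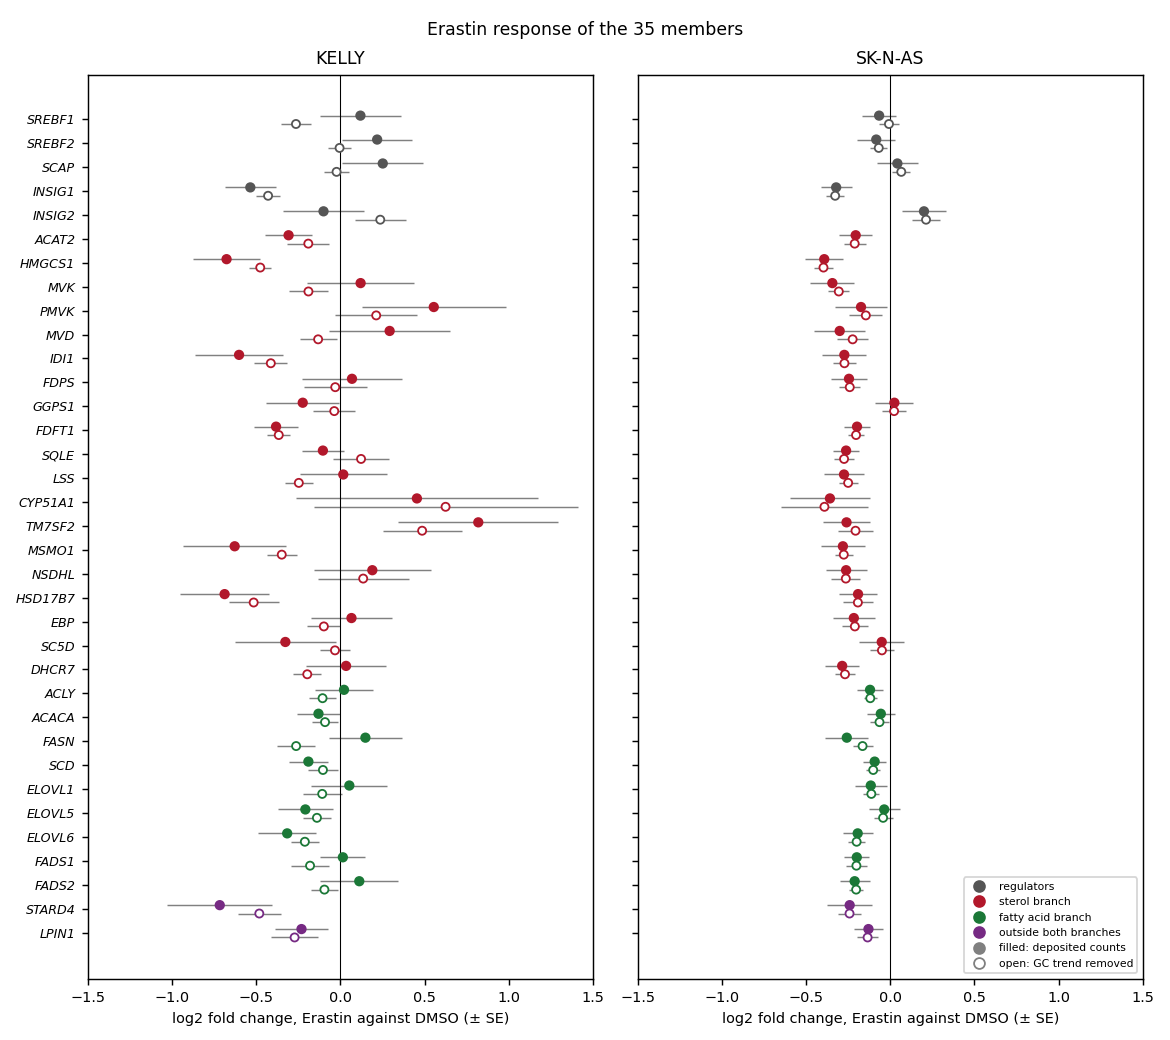
Log2 fold change of Erastin against DMSO (horizontal axis, ± SE, 3 samples per group) for the 35 members (vertical axis) in KELLY (left) and SK-N-AS (right), coloured by group, filled for the deposited counts and open with the GC trend of each library removed. In SK-N-AS 32 members lie left of 0 in both versions, and in KELLY 17 do before and 29 after the trend is removed. Over all genes, 49.5% and 51.6% of the KELLY values were negative.

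Among the regulators, INSIG1, a sterol-sensing retention protein that is itself transcribed by SREBPs (chr7:155297776-155310235, plus strand, GRCh38), stood below all DMSO values in each Erastin sample of both lines. Its level was 103, 93.3 and 91.7 CPM in the KELLY DMSO samples and 57.6, 71.4 and 69.4 CPM with Erastin, and 64.3, 70.7 and 74.9 CPM in the SK-N-AS DMSO samples and 57.7, 52.9 and 56.2 CPM with Erastin. The groups did not overlap in either line. The log2 fold change was -0.54 ± 0.15 (SE) in KELLY, with an edgeR adjusted p of 0.770. In SK-N-AS it was -0.32 ± 0.093, with an edgeR adjusted p of 0.217. Removal of the GC trend gave -0.43 ± 0.073 (adjusted p = 0.125) and -0.33 ± 0.052 (adjusted p = 0.00230). INSIG2, the paralog that is not a typical SREBP target, was low. It stood at 10.6, 6.56 and 9.04 CPM with DMSO and 6.46, 9.43 and 8.51 CPM with Erastin in KELLY, and at 15.7, 19.1 and 22.02 CPM and 20.003, 21.3 and 23.5 CPM in SK-N-AS. The groups overlapped in both lines, and the log2 fold change was -0.10 ± 0.24 in KELLY and 0.20 ± 0.13 in SK-N-AS. In KELLY the sign turned, to 0.24 ± 0.15, with the GC trend removed.

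The transcription factors and their escort showed no change that passed a test. SREBF2 stood at 305, 459 and 386 CPM in the KELLY DMSO samples and 542, 369 and 422 CPM with Erastin, and at 167, 152 and 121 CPM and 142, 144 and 127 CPM in SK-N-AS. SREBF1 stood at 105, 169 and 135 CPM and 186, 113 and 143 CPM in KELLY and at 70.9, 64.3 and 56.4 CPM and 62.2, 61.4 and 58.3 CPM in SK-N-AS. SCAP stood at 124, 197 and 153 CPM and 241, 147 and 174 CPM in KELLY and at 83.9, 78.01 and 60.4 CPM and 74.5, 83.3 and 69.6 CPM in SK-N-AS. In all 3 genes the DMSO and Erastin samples overlapped in both lines, and in KELLY DMSO replicate 1 was the lowest and Erastin replicate 1 the highest of the 6 samples. The log2 fold change in KELLY was 0.22 ± 0.21 for SREBF2, 0.12 ± 0.24 for SREBF1 and 0.25 ± 0.24 for SCAP, and with the GC trend removed it was -0.0052 ± 0.068, -0.26 ± 0.088 and -0.023 ± 0.075. In SK-N-AS it was -0.083 ± 0.11, -0.066 ± 0.10 and 0.042 ± 0.12 for the same genes, with edgeR adjusted p-values of 0.906, 0.919 and 0.959.

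**Figure D2:**
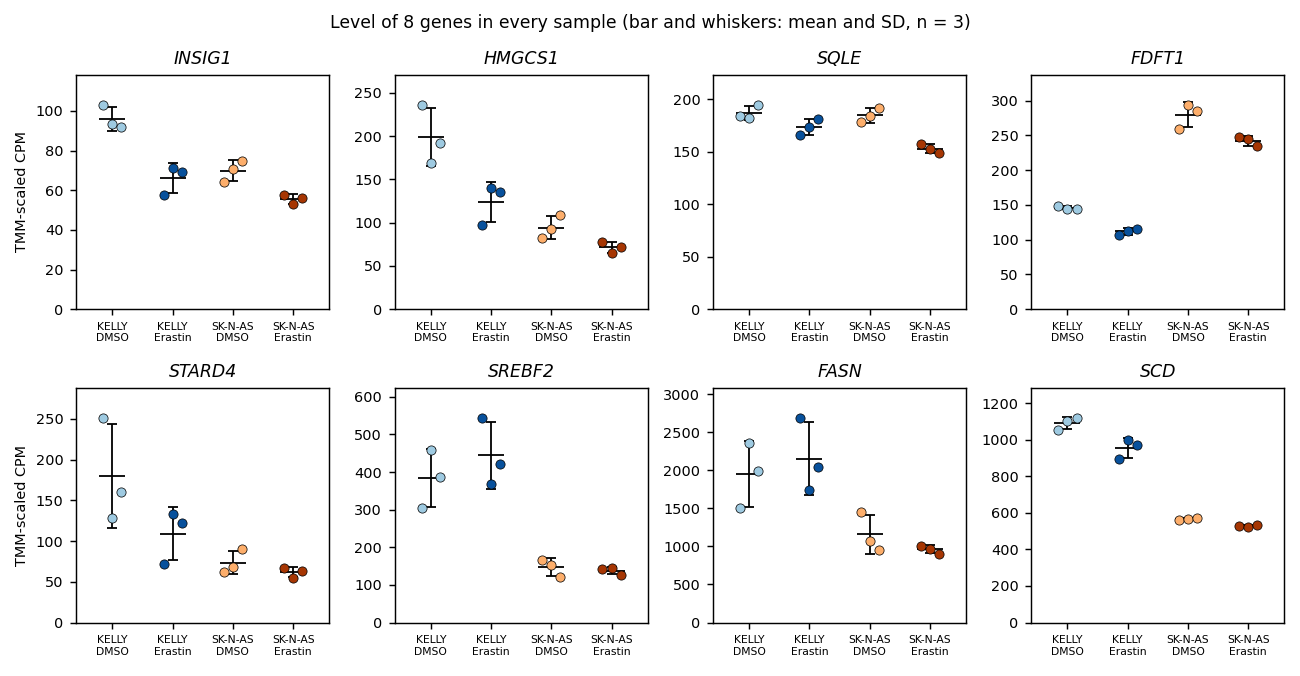
Level of 8 genes in every sample (vertical axis, TMM-scaled CPM from 0; points are samples, the bar and whiskers are the mean and SD of 3) by group (horizontal axis). INSIG1, HMGCS1, SQLE, FDFT1 and SCD lie lower with Erastin without overlap in both lines, while STARD4, SREBF2 and FASN overlap.

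In the sterol branch, both enzymes that lead to 3-hydroxy-3-methylglutaryl-CoA, ACAT2 and HMGCS1, stood below all DMSO values in each Erastin sample of both lines. HMGCS1, the cytosolic synthase of that intermediate (chr5:43287470-43313512, minus strand), stood at 236, 169 and 192 CPM in the KELLY DMSO samples and 97.8, 139 and 136 CPM with Erastin. In SK-N-AS it stood at 81.9, 92.7 and 109 CPM and 77.3, 65.03 and 71.98 CPM. The groups did not overlap in either line. The log2 fold change was -0.68 ± 0.20 (SE) in KELLY (edgeR adjusted p = 0.770) and -0.39 ± 0.11 in SK-N-AS (edgeR adjusted p = 0.220). With the GC trend removed it was -0.48 ± 0.066 (adjusted p = 0.0404) and -0.40 ± 0.057 (adjusted p = 9.84e-04). Of the exon bases of HMGCS1, 37.7% lie opposite an antisense gene, and the sources used here do not state whether the counting used strand. ACAT2, the cytosolic thiolase that forms acetoacetyl-CoA, stood at 57.4, 60.6 and 59.1 CPM and 48.8, 47.5 and 46.5 CPM in KELLY and at 33.9, 37.004 and 38.3 CPM and 33.9, 30.04 and 30.1 CPM in SK-N-AS. It was lower without overlap in both lines, by a narrow margin in SK-N-AS, with log2 fold changes of -0.31 ± 0.14 and -0.21 ± 0.10 and edgeR adjusted p-values of 0.770 and 0.597. Its exons lie opposite those of other genes over 22.2% of their bases.

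The enzymes from mevalonate to isopentenyl diphosphate spread more widely between samples in KELLY than in SK-N-AS, by the SD of the DMSO samples relative to their mean. MVK, mevalonate kinase, stood at 17.2, 34.6 and 22.3 CPM with DMSO and 36.1, 19.6 and 24.4 CPM with Erastin in KELLY, and at 74.5, 72.5 and 53.6 CPM and 52.8, 57.996 and 46.2 CPM in SK-N-AS, with overlap in both. Its log2 fold change was 0.12 ± 0.32 in KELLY, which turned to -0.19 ± 0.12 with the GC trend removed, and -0.34 ± 0.13 in SK-N-AS (edgeR adjusted p = 0.430, or 0.0129 after the GC trend was removed). PMVK, phosphomevalonate kinase, stood at 12.6, 22.1 and 15.5 CPM and 41.2, 12.9 and 19.3 CPM in KELLY, where Erastin replicate 1 was the highest sample, and at 14.4, 13.4 and 9.55 CPM and 10.6, 12.1 and 10.1 CPM in SK-N-AS. Its KELLY log2 fold change of 0.55 ± 0.43 was 0.21 ± 0.24 with the GC trend removed, and turned to -0.056 without Erastin replicate 1. MVD, which decarboxylates mevalonate diphosphate, stood at 23.1, 44.4 and 33.3 CPM and 62.04, 26.7 and 34.2 CPM in KELLY and at 19.3, 14.7 and 12.4 CPM and 12.9, 12.7 and 11.9 CPM in SK-N-AS, with overlap in both and log2 fold changes of 0.29 ± 0.36 and -0.30 ± 0.15. The KELLY value of MVD turned to -0.13 ± 0.11 with the GC trend removed. IDI1, the isopentenyl diphosphate isomerase, stood at 143, 93.8 and 108 CPM in the KELLY DMSO samples and 50.99, 91.9 and 84.2 CPM with Erastin, without overlap, and at 114, 137 and 171 CPM and 122, 105 and 120.4 CPM in SK-N-AS, with overlap. The log2 fold change was -0.60 ± 0.26 (edgeR adjusted p = 0.770) in KELLY and -0.27 ± 0.13 (adjusted p = 0.594) in SK-N-AS. Removal of the GC trend gave -0.41 ± 0.10 (adjusted p = 0.442) and -0.27 ± 0.067 (adjusted p = 0.0312). IDI1 has 3 annotated pseudogenes, HSD17B7 has 2, FDPS 8 and CYP51A1 3, and SCD has SCDP1, so their counts could be split with near-identical copies. Of the exon bases of EBP, 36.4% overlap another annotated gene on the same strand.

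From farnesyl diphosphate onward, FDFT1 and SQLE varied little between samples of a group. FDFT1, squalene synthase, stood at 149, 144 and 145 CPM in the KELLY DMSO samples and 107, 113 and 116 CPM with Erastin, and at 259.6, 293 and 286 CPM and 248, 245 and 234 CPM in SK-N-AS. SQLE, the squalene epoxidase, stood at 184, 183 and 194 CPM and 166, 173 and 181 CPM in KELLY and at 178, 184 and 192 CPM and 157, 153 and 149 CPM in SK-N-AS. Both genes were lower with Erastin without overlap in both lines. For FDFT1 the log2 fold change was -0.38 ± 0.13 in KELLY and -0.20 ± 0.079 in SK-N-AS, and with the GC trend removed -0.37 ± 0.067 (adjusted p = 0.185) and -0.20 ± 0.048 (adjusted p = 0.0276). For SQLE it was -0.10 ± 0.13 and -0.26 ± 0.077, with adjusted p-values of 0.776 and 0.230 in edgeR. Once the GC trend was removed, SQLE was -0.27 ± 0.059 (adjusted p = 0.0163) in SK-N-AS and turned to 0.12 ± 0.17 in KELLY. GGPS1, which makes geranylgeranyl diphosphate for protein prenylation and so leaves the sterol route, was the single member of the branch with a positive value in SK-N-AS. It stood at 29.4, 30.5 and 37.7 CPM and 33.5, 34.3 and 30.8 CPM there and at 18.1, 14.9 and 18.7 CPM and 10.97, 17.6 and 15.6 CPM in KELLY, with log2 fold changes of 0.024 ± 0.11 and -0.22 ± 0.22. Of its exon bases, 41.0% overlap other annotated genes, among them ARID4B on the opposite strand, and since the use of strand in counting is not stated, reads of these genes could not be told apart.

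Among the enzymes after lanosterol, HSD17B7, a sterone reductase, stood at 21.99, 12.5 and 14.2 CPM with DMSO and 7.91, 11.1 and 11.1 CPM with Erastin in KELLY, without overlap, and at 16.7, 17.3 and 19.1 CPM and 14.5, 17.05 and 14.7 CPM in SK-N-AS, with overlap. Its log2 fold change was -0.69 ± 0.26 (edgeR adjusted p = 0.770) and -0.19 ± 0.11 (adjusted p = 0.717). Once the GC trend was removed it was -0.52 ± 0.15 in KELLY (adjusted p = 0.610). TM7SF2, a sterol reductase, had the most positive value of the branch in KELLY with the trend left in. It stood at 3.49, 12.2 and 7.56 CPM with DMSO and 20.9, 9.94 and 9.94 CPM with Erastin in KELLY, and at 11.9, 12.2 and 9.36 CPM and 9.78, 9.91 and 8.06 CPM in SK-N-AS. Its log2 fold change was 0.82 ± 0.47 in KELLY (adjusted p = 0.770) and -0.26 ± 0.14 in SK-N-AS (adjusted p = 0.671), and DMSO replicate 1 was the lowest and Erastin replicate 1 the highest KELLY sample. After removal of the GC trend the KELLY value was 0.49 ± 0.23, and that of CYP51A1, 0.62 ± 0.78, was then the highest of the branch. CYP51A1, lanosterol demethylase, stood at 0.942, 12.996 and 8.54 CPM with DMSO and 14.03, 7.003 and 9.61 CPM with Erastin in KELLY, and at 11.9, 9.85 and 5.76 CPM and 8.03, 7.92 and 5.31 CPM in SK-N-AS. KELLY DMSO replicate 1 was far below every other sample, and the KELLY log2 fold change of 0.45 ± 0.72 was -0.070 without it. Of its exon bases, 74.1% overlap other annotated genes. The other 7 members of the branch (FDPS, LSS, MSMO1, NSDHL, EBP, SC5D and DHCR7) had log2 fold changes from -0.63 to 0.19 in KELLY, 2 of them negative, and from -0.29 to -0.051 in SK-N-AS, all 7 negative. Once the GC trend was removed, 6 of the 7 were negative in KELLY, where FDPS turned to -0.031 ± 0.19, LSS to -0.25 ± 0.083, EBP to -0.10 ± 0.10 and DHCR7 to -0.20 ± 0.084, and NSDHL stayed positive at 0.14 ± 0.27.

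In the fatty acid branch, no member reached either threshold in either line with the GC trend left in. FASN, the fatty acid synthase (chr17:82078338-82098294, minus strand), stood at 1498, 2357 and 1988 CPM with DMSO and 2679.8, 1738 and 2036 CPM with Erastin in KELLY, and at 1448, 1072 and 949 CPM and 1007, 969.98 and 904 CPM in SK-N-AS. The groups overlapped in both lines. Its log2 fold change was 0.15 ± 0.22 in KELLY, which turned to -0.26 ± 0.11 with the GC trend removed, and -0.26 ± 0.13 in SK-N-AS, where it was -0.16 ± 0.06 with the trend removed (adjusted p = 0.138). FASN has a GC content of 65.3%, the highest of the 35. SCD, the stearoyl-CoA desaturase that makes monounsaturated fatty acids, stood at 1055, 1102 and 1116 CPM and 892, 996 and 973 CPM in KELLY and at 559, 565 and 572 CPM and 527, 522 and 531 CPM in SK-N-AS. It was lower without overlap in both lines, with small log2 fold changes of -0.19 ± 0.11 and -0.093 ± 0.069 and edgeR adjusted p-values of 0.770 and 0.801. ACACA, the acetyl-CoA carboxylase that makes malonyl-CoA, stood at 271, 262 and 281 CPM and 253, 256 and 233 CPM in KELLY, without overlap, and at 123, 119 and 114 CPM and 118, 109.7 and 111 CPM in SK-N-AS, with overlap. Its log2 fold changes were -0.13 ± 0.13 and -0.056 ± 0.081.

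The elongases and desaturases that act on longer chains were measured as well. ELOVL6, which extends palmitate, stood at 99.1, 75.1 and 93.1 CPM and 61.7, 76.7 and 75.9 CPM in KELLY, with overlap, and at 114, 117 and 132 CPM and 109, 100.01 and 107 CPM in SK-N-AS, without overlap. Its log2 fold change was -0.32 ± 0.17 and -0.19 ± 0.089, and with the GC trend removed it passed in SK-N-AS at -0.20 ± 0.049 (adjusted p = 0.0327). ELOVL5, an elongase of polyunsaturated chains, stood at 208, 169 and 184 CPM and 136, 181 and 168 CPM in KELLY and at 159, 184 and 191 CPM and 174, 162 and 182 CPM in SK-N-AS, with log2 fold changes of -0.21 ± 0.16 and -0.036 ± 0.091. FADS2, the delta-6 desaturase, stood at 155, 249.7 and 199.9 CPM and 273, 178 and 200.3 CPM in KELLY and at 443, 426 and 358 CPM and 349.6, 361 and 343 CPM in SK-N-AS. The groups of ELOVL5 and FADS2 overlapped in both lines. For FADS2 the log2 fold change was 0.11 ± 0.23 in KELLY and -0.21 ± 0.089 in SK-N-AS, and with the GC trend removed -0.10 ± 0.079 (adjusted p = 0.745) and -0.20 ± 0.042 (adjusted p = 0.0124). ELOVL1, an elongase of saturated very long chains, stood at 15.7, 23.9 and 19.6 CPM and 23.2, 16.1 and 21.96 CPM in KELLY and at 85.9, 83.3 and 71.6 CPM and 71.7, 79.1 and 69.9 CPM in SK-N-AS, with overlap in both. ACLY and FADS1 had log2 fold changes of 0.021 and 0.014 in KELLY and of -0.12 and -0.20 in SK-N-AS. After removal of the GC trend the KELLY values turned to -0.11 ± 0.082 for ACLY, -0.18 ± 0.11 for FADS1 and -0.11 ± 0.12 for ELOVL1.

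STARD4, a carrier of cholesterol between membranes, and LPIN1, a phosphatidate phosphatase of glycerolipid synthesis, are SREBP-responsive genes outside both branches. STARD4 stood at 250.4, 128 and 160.2 CPM with DMSO and 71.6, 133 and 123 CPM with Erastin in KELLY, and at 62.3, 68.6 and 89.9 CPM and 66.9, 55.1 and 63.7 CPM in SK-N-AS. The groups overlapped in both lines, and its log2 fold change was -0.72 ± 0.31 (edgeR adjusted p = 0.770) and -0.24 ± 0.13 (adjusted p = 0.676). After removal of the GC trend it was -0.48 ± 0.13 and -0.24 ± 0.067, with adjusted p-values of 0.530 and 0.0536. LPIN1 stood at 179.6, 147 and 168 CPM and 119.9, 155 and 147 CPM in KELLY, with overlap, and at 68.7, 72.8 and 73.6 CPM and 65.1, 62.1 and 68.1 CPM in SK-N-AS, without overlap. Its log2 fold changes were -0.23 ± 0.16 and -0.13 ± 0.086, with edgeR adjusted p-values of 0.770 and 0.763.

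The branches were set side by side without a test, since members are not replicates. In SK-N-AS the median log2 fold change was -0.26 in the sterol branch and -0.12 in the fatty acid branch, against -0.0089 over all genes tested, and 18 of 19 and 9 of 9 members had a negative value. Their ranges were -0.39 to 0.024 and -0.26 to -0.036. Removing the GC trend gave medians of -0.24 and -0.12. In KELLY the medians were 0.017 and 0.014, against 0.0052 over all genes, with ranges of -0.69 to 0.82 and -0.32 to 0.15. With the trend removed they were -0.13 and -0.11, against -0.0071 over all genes. Then 14 of 19 and 9 of 9 members were negative, against 51.6% of all genes. Across the 35 members, the KELLY fold changes followed GC content (Spearman 0.73, a description over genes that share libraries), and this was 0.099 with the trend removed. In SK-N-AS the same value was -0.072. Among the members with large KELLY fold changes, HMGCS1, IDI1, HSD17B7 and STARD4 have GC contents of 41.8%, 41.8%, 43.7% and 40.6%, and TM7SF2 and PMVK 62.7% and 58.98%. Others with similar GC content did not move alike. INSIG2, SQLE and CYP51A1, at 36.7%, 40.8% and 41.0%, had KELLY values of -0.10, -0.10 and 0.45. LSS and SREBF1, at 58.1% and 63.2%, had 0.017 and 0.12.

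**Figure D3:**
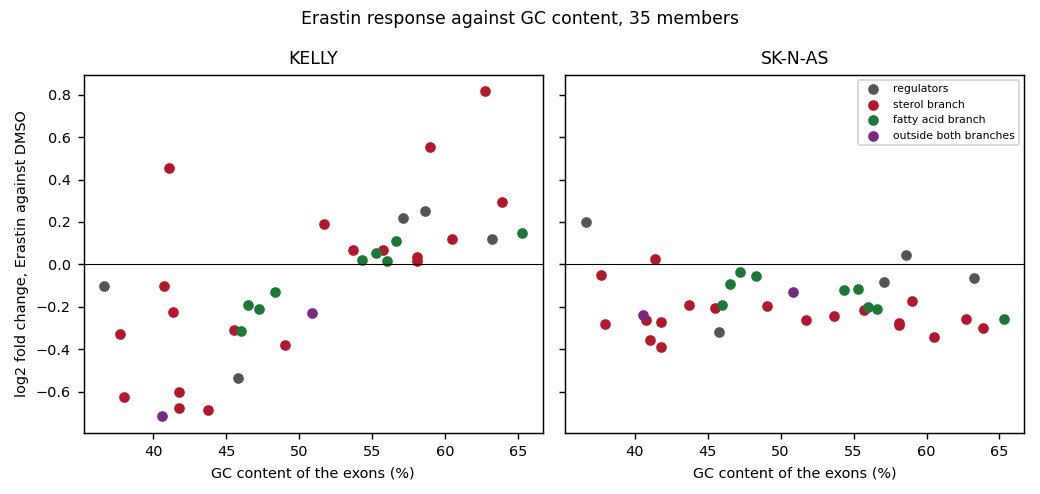
Log2 fold change of Erastin against DMSO (vertical axis) against the GC content of the exons in percent (horizontal axis) for the 35 members in KELLY (left) and SK-N-AS (right), coloured by group, with the GC trend left in. The values climb with GC content in KELLY (Spearman 0.73) and do not in SK-N-AS (-0.072).

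As a mean over members in each sample, relative to the mean of the DMSO samples of the line, the sterol branch stood at 0.030, 0.045 and -0.076 on the log2 scale in the SK-N-AS DMSO samples and at -0.18, -0.21 and -0.30 with Erastin. The fatty acid branch stood at 0.053, 0.0056 and -0.059 and at -0.11, -0.15 and -0.16. In both branches every Erastin sample lay below every DMSO sample. In KELLY the sterol branch stood at -0.26, 0.21 and 0.050 with DMSO and at 0.083, -0.16 and -0.042 with Erastin, so the groups overlapped, with DMSO replicate 1 the lowest of the 6. CYP51A1 carried part of that gap, since without it the DMSO samples stood at -0.15, 0.14 and 0.0074 and the Erastin samples at 0.0016, -0.20 and -0.10, which still overlapped. The fatty acid branch in KELLY stood at -0.12, 0.088 and 0.034 with DMSO and at 0.023, -0.13 and -0.057 with Erastin. On removal of the GC trend it stood at 0.013, -0.022 and 0.0089 with DMSO and at -0.17, -0.13 and -0.13 with Erastin, without overlap, while the sterol branch still overlapped.

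**Figure D4:**
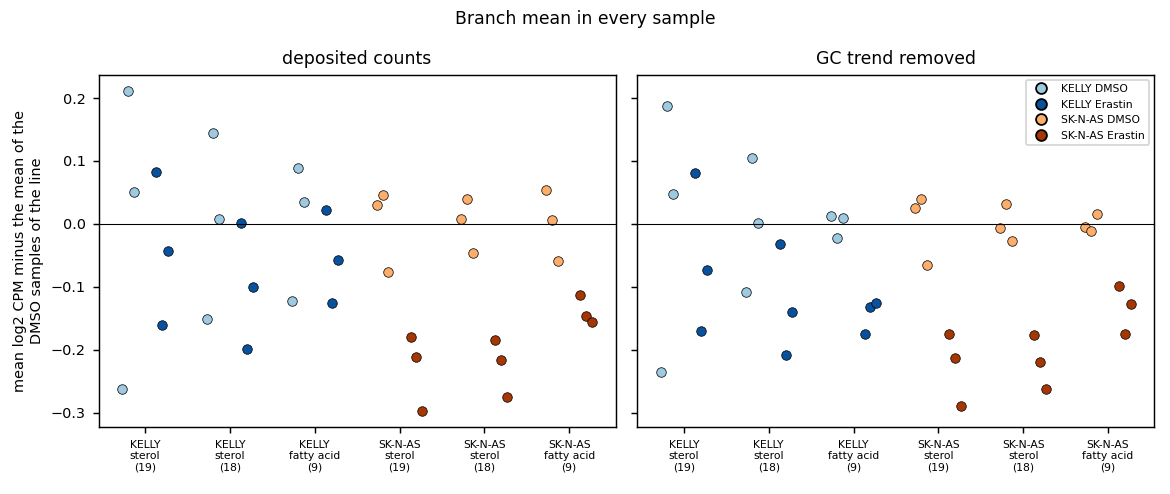
Mean log2 CPM over the members of a branch minus the mean of the DMSO samples of the line (vertical axis) in every sample, by line and branch (horizontal axis; 19 sterol members, 18 without CYP51A1, 9 fatty acid members), with the GC trend left in (left) and removed (right). In SK-N-AS the Erastin samples lie below all DMSO samples in both branches, and in KELLY this holds for the fatty acid branch with the trend removed.

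Groups that did not overlap were counted in each line. In KELLY, 9 of the 35 members were lower with Erastin in every sample (25.7%), against 4.35% of all genes tested, and none was higher. The GC trend was left in for these counts, and the KELLY log2 fold changes followed GC content at 0.79. The 9 members have GC contents from 40.8% to 49.1%, and the share over all genes was not matched for GC content. In SK-N-AS 10 were lower (28.6%), against 7.82% of all genes, and none was higher. The members lower without overlap in both lines, which share no samples, were INSIG1, ACAT2, HMGCS1, FDFT1, SQLE and SCD. These 6 (17.1% of 35) compare with 0.767% of the 14338 genes tested in both lines, with the GC trend left in. With it removed, the KELLY log2 fold changes were -0.43 for INSIG1, -0.19 for ACAT2, -0.48 for HMGCS1 and -0.37 for FDFT1. That of SCD was then -0.10 ± 0.089, and that of SQLE turned to 0.12 ± 0.17. ACAT2 and SQLE were named after their values were seen. The difference between the responses of the lines was tested over all 12 samples. No member passed, where 0.00551% of the 18165 genes tested did, and none had an unadjusted edgeR p under 0.05. The smallest p was that of TM7SF2, whose SK-N-AS response lay lower than its KELLY response by a log2 difference of -1.08 ± 0.54 (edgeR adjusted p = 0.811). For INSIG1 and HMGCS1 the difference was 0.21 ± 0.16 and 0.28 ± 0.24, and for FASN -0.41 ± 0.28. Once the GC trend was removed these differences were -0.69 ± 0.27 for TM7SF2 (edgeR adjusted p = 0.581), 0.10 ± 0.084 for INSIG1 and 0.076 ± 0.085 for HMGCS1, and that of FASN turned to 0.10 ± 0.14. The sign turned for 8 members in all, and none passed.

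More members differed between the control samples of the lines than between Erastin and DMSO in either line. Of the 35 members, 24 passed an edgeR adjusted p of 0.05 between SK-N-AS DMSO and KELLY DMSO, of which 14 were higher in KELLY (40.0%) and 10 higher in SK-N-AS (28.6%). Over all 17027 genes tested, 30.9% were higher in KELLY and 30.4% higher in SK-N-AS, close to the members' shares. Removal of the GC trend raised the count to 29, of which 17 were higher in KELLY and 12 higher in SK-N-AS, against 38.9% and 34.3% of all genes, and no member's sign turned. Among the regulators, SREBF2, SREBF1, SCAP and INSIG1 were higher in KELLY, with log2 differences (SK-N-AS minus KELLY) of -1.40 ± 0.19, -1.11 ± 0.19, -1.10 ± 0.20 and -0.47 ± 0.13 and adjusted p-values of 2.13e-04, 9.91e-04, 0.00136 and 0.0133. INSIG2 was higher in SK-N-AS by 1.10 ± 0.22 (adjusted p = 0.00244). STARD4 and LPIN1 were higher in KELLY, at -1.30 ± 0.26 and -1.22 ± 0.13 (adjusted p = 0.00217 and 5.92e-05). The groups did not overlap for any of these 7 genes. The comparison shares its control samples with both Erastin comparisons.

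Both branches held members that were higher in either line. In the sterol branch, the median log2 difference over the 19 genes was 0.28, with 5 genes higher in KELLY and 5 higher in SK-N-AS. MVD stood at 23.1, 44.4 and 33.3 CPM in the KELLY and 19.3, 14.7 and 12.4 CPM in the SK-N-AS DMSO samples, a log2 difference of -1.13 ± 0.26 (adjusted p = 0.00526). That of HMGCS1 was -1.09 ± 0.17 (adjusted p = 5.57e-04). MVK, at 17.2, 34.6 and 22.3 CPM against 74.5, 72.5 and 53.6 CPM, was higher in SK-N-AS by 1.43 ± 0.26 (adjusted p = 0.00144), and FDFT1 by 0.92 ± 0.12 (adjusted p = 1.60e-04). The other genes higher in KELLY were ACAT2, EBP and SC5D, and the others higher in SK-N-AS were FDPS, GGPS1 and MSMO1. SQLE and LSS, the enzymes that make and close the squalene epoxide, differed by -0.031 ± 0.11 and -0.056 ± 0.20 and did not pass. Once the GC trend was removed, LSS passed at -0.18 ± 0.069 (edgeR adjusted p = 0.0432) and SQLE did not (-0.021 ± 0.13). PMVK (-0.56 ± 0.12, adjusted p = 0.00221), IDI1 (0.30 ± 0.085, adjusted p = 0.0106), DHCR7 (0.31 ± 0.075, adjusted p = 0.00415) and, in the fatty acid branch, ACLY (-0.45 ± 0.071, adjusted p = 2.98e-04) passed as well in that fit. In the fatty acid branch, the median over the 9 genes was -0.082, with 3 higher in KELLY and 4 higher in SK-N-AS. The synthesis enzymes ACACA (-1.21 ± 0.12, adjusted p = 2.79e-05), SCD (-0.96 ± 0.10, adjusted p = 5.78e-05) and FASN (-0.77 ± 0.21, adjusted p = 0.0105) were higher in KELLY. ELOVL1 (2.01 ± 0.19, adjusted p = 2.23e-05), FADS2 (1.01 ± 0.19, adjusted p = 0.00141), FADS1 (0.67 ± 0.12, adjusted p = 0.00102) and ELOVL6 (0.43 ± 0.15, adjusted p = 0.0337) were higher in SK-N-AS. The carboxylase, the synthase and the delta-9 desaturase were thus higher in KELLY, and both polyunsaturated desaturases in SK-N-AS. Of the 24 calls, those of EBP and MSMO1 held in 10 of 17 alternatives, that of ELOVL6 in 11, those of INSIG1 and FDPS in 14 and that of SC5D in 16, and the others in all 17.

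**Figure D5:**
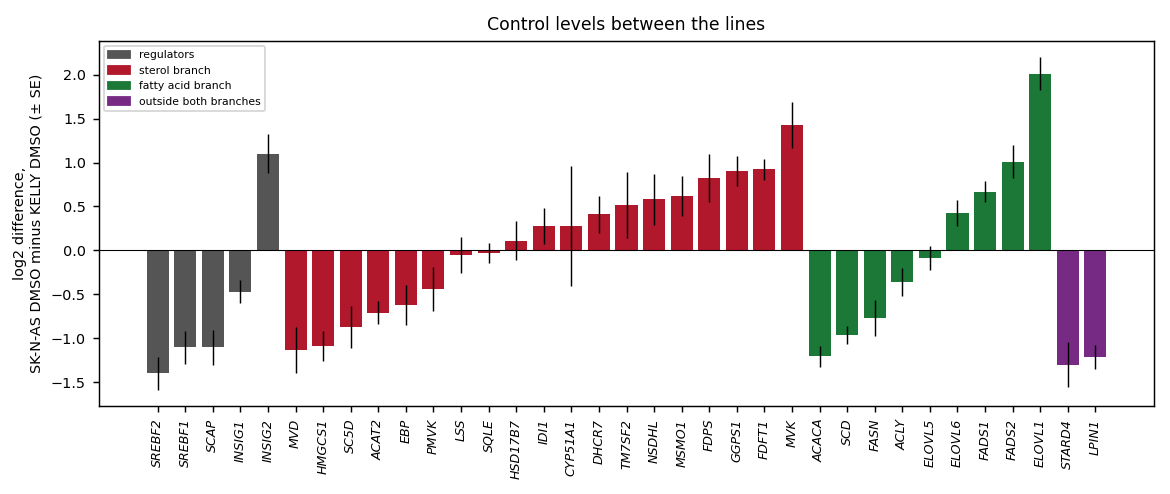
Log2 difference between the SK-N-AS DMSO and KELLY DMSO samples (vertical axis, bars from 0, whiskers ± SE, 3 samples per group) for the 35 members (horizontal axis), ordered within each group of genes. ELOVL1 stands highest at 2.01 and SREBF2 lowest at -1.40, and both branches hold bars on either side of 0.

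Levels between genes were compared per kilobase of exon (GENCODE release 44). In the KELLY DMSO samples FASN (209 ± 46.2 CPM per kb, SD, n = 3), SCD (208 ± 6.16) and ACLY (140 ± 27.7), the citrate lyase that supplies acetyl-CoA, came first, followed by ELOVL5 (49.0 ± 5.09), SREBF2 (47.6 ± 9.55) and SQLE (43.4 ± 1.51). FASN and SCD did not differ beyond their spread, nor did ELOVL5 and SREBF2. In the SK-N-AS DMSO samples the same 3 genes led, FASN (124 ± 27.9), ACLY (110 ± 8.26) and SCD (108 ± 1.25), which did not differ beyond the spread of FASN. FDFT1 (55.0 ± 3.48) was the highest member of the sterol branch there, and MSMO1 (48.8 ± 9.32) followed within its spread. The lowest member of all by this measure was CYP51A1 in both lines, at 1.80 ± 1.46 and 2.20 ± 0.747 CPM per kb, within its spread of INSIG2 in KELLY and of SC5D in SK-N-AS. Of its exon bases, 74.1% overlap other annotated genes, and it has 3 annotated pseudogenes. Reads from such bases may be left uncounted or belong to another gene, while the full exon length was used, so its level and rank are uncertain. The same limit holds for GGPS1 (41.0%) and EBP (36.4%).

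The other genes of the pathway were 8 that process or degrade SREBPs and their partners, 27 of further lipid synthesis and transport and 7 of the liver X receptor (LXR) side, which senses oxysterols. Of these 42, 39 passed the filter in each line, and none passed an edgeR adjusted p of 0.05 with the trend left in. At an unadjusted edgeR p under 0.05 there were 1 in KELLY and 4 in SK-N-AS, all higher with Erastin. Over all genes this was reached by 430 of 16258 in KELLY, 172 of them falls, and by 1412 of 16095 in SK-N-AS, 784 of them falls. In KELLY 27 of 39 had a negative value (median -0.12), against 49.5% of all genes, and in SK-N-AS 19 of 39 (median 0.0092), against 52.4%. The smallest p-value in either line was that of ABCA1, the cholesterol exporter and LXR target. It stood at 25.98, 25.7 and 30.3 CPM in the SK-N-AS DMSO samples and 33.7, 40.3 and 35.2 CPM with Erastin, a log2 fold change of 0.42 ± 0.11 (edgeR adjusted p = 0.157). DESeq2 called it in SK-N-AS, with an adjusted p of 0.0354. In KELLY it stood at 2.51, 1.84 and 2.93 CPM and 1.08, 2.11 and 1.75 CPM, with a log2 fold change of -0.56 ± 0.33 (adjusted p = 0.770). ME1, the cytosolic malic enzyme that yields NADPH, had 0.32 ± 0.11 (edgeR adjusted p = 0.340), and MBTPS1, the site-1 protease that begins SREBP release, 0.25 ± 0.086 (edgeR adjusted p = 0.357) in SK-N-AS. Once the GC trend was removed, edgeR called 5 of these genes higher with Erastin in SK-N-AS, ABCA1, ME1, MBTPS1, NPC2 and MID1IP1, against 2.21% of all genes called as rises. It called 1 lower, SLC25A1, the citrate carrier, against 2.93% of all genes called as falls.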

How the data were processed

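RNA-seq of 12 samples was used, 3 per group, with total counts of 24169796 to 29835670. The values are raw counts per gene that the authors deposited; the submitters' processing notes name Trimmomatic, HTSeq and GRCh38, and the methods name an earlier GENCODE release. The aligner and its strand setting are not given in the sources used here. The columns of both tables were mapped by their sample names, with 0 columns left over.

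Genes passed edgeR 4.0.16 filterByExpr and were scaled by TMM, and each comparison was tested with the quasi-likelihood test (R 4.3.3) and Benjamini-Hochberg adjustment over all genes tested. The standard error is the log2 fold change over the square root of F. The levels are CPM scaled over all 12 libraries. The GC trend of each library was removed by a loess offset (span 0.5, degree 2) with exon GC content of GENCODE 44, matched by symbol. DESeq2 1.42.0 and limma-voom (limma 3.58.1) were alternatives. The fit was tested on simulated data, with a GC trend that was the same in both groups. In KELLY the trend differed between the groups, so the simulation cannot show how well its removal works there.

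The members and lists were chosen with earlier results of these data known. Values by sample are given for the regulators, STARD4, LPIN1, members called in an Erastin comparison with the GC trend left in, and the extremes of each branch. ACAT2 and SQLE were added after their values were seen. Other members are given by ranges or fold changes alone. Among these are FDPS, LSS, MSMO1 and DHCR7, which edgeR called in SK-N-AS once the GC trend was removed. GC removal with a library left out, and CYP51A1 left out of its branch, were chosen after seeing the data.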

Additional observations from a re-analysis of the deposited data

How the results depend on the processing

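The 11 alternatives in scaling, filter, tool, genes, pairing, GC content and samples fitted, and each library left out, left most values of single members in place: 531 in KELLY, 543 in SK-N-AS and 543 between controls kept direction and side of the threshold. In KELLY 63 reversed and 1 became significant, in SK-N-AS 10 and 42, and between controls 7 and 18, with 27 lost. For the difference between lines, covered here for TM7SF2, INSIG1, HMGCS1 and FASN, 86 kept both and 2 reversed (FASN, 0.10 with the GC trend removed, with or without the replicate block). The cause was not tested.

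With the GC trend removed, the KELLY log2 fold changes that reversed were SREBF1 -0.26, SREBF2 -0.0052, SCAP -0.023, INSIG2 0.24, MVK -0.19, MVD -0.13, SQLE 0.12, FASN -0.26, ELOVL1 -0.11, FADS2 -0.095, FDPS -0.031, LSS -0.25, EBP -0.099, DHCR7 -0.20, ACLY -0.11 and FADS1 -0.18. With the replicate block as well they were -0.26, -0.0054, -0.023, 0.24, -0.18, -0.14, 0.12, -0.26, -0.11 and -0.096, and -0.25 for LSS, -0.092 for EBP, -0.19 for DHCR7, -0.10 for ACLY and -0.18 for FADS1, while FDPS stayed positive. LSS was also -0.00060 with limma-voom and -0.0020 with the replicate block alone. With a library left out, signs turned in KELLY without DMSO replicate 1 or Erastin replicate 1 (for ELOVL1 also without Erastin replicate 3), and the values ran from -0.089 to 0.30 for SREBF1, -0.27 to 0.065 for INSIG2, -0.16 to 0.44 for MVK, -0.056 to 0.86 for PMVK, -0.14 to 0.54 for MVD, -0.070 to 1.10 for CYP51A1, -0.046 to 0.30 for FASN, -0.087 to 0.21 for ELOVL1, -0.092 to 0.29 for FADS2, -0.20 to 0.34 for FDPS, -0.25 to 0.18 for LSS, -0.092 to 0.45 for NSDHL, -0.12 to 0.28 for EBP, -0.17 to 0.19 for DHCR7, -0.13 to 0.13 for ACLY and -0.031 to 0.048 for FADS1. In SK-N-AS they ran from -0.15 to 0.015 for SREBF1, -0.20 to 0.019 for SREBF2 and -0.046 to 0.15 for GGPS1, which turned without DMSO replicate 1 (GGPS1 also without DMSO replicate 2), and from -0.085 to 0.14 for SCAP, -0.15 to 0.081 for SC5D and -0.11 to 0.017 for ELOVL5, which turned without DMSO replicate 3 or Erastin replicate 2. Between controls SQLE was 0.0086 with no filter, and with a library left out the values ran from -0.049 to 0.0080 for SQLE, -0.23 to 0.11 for LSS, -0.25 to 0.92 for CYP51A1, -0.042 to 0.39 for HSD17B7 and -0.15 to 0.0056 for ELOVL5.

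At the threshold of the methods, KELLY members numbered 3, but 6 with no low count filter, 5 with DESeq2 or all samples in 1 fit, 0 with the replicate block or the GC trend removed, and 0 to 6 with a library left out. At adjusted p, 1 passed with the GC trend removed. The KELLY fatty acid median was -0.11 with the GC trend removed, with or without the block, and -0.12 to 0.048 with a library left out, the sterol median -0.14 to 0.18, and the sterol minus fatty acid difference, 0.0025, -0.023 to 0.14. In SK-N-AS, members passing were 1 with no filter, 1 with the replicate block, 12 with the GC trend removed, 17 with both, and 0 to 10 with a library left out, and 0 to 1 at the threshold of the methods. Over all 16095 genes, calls were 146 rises and 162 falls with the block. They were 356 and 471 with the GC trend removed, and 658 and 782 with both. The SK-N-AS medians ran from -0.33 to -0.19 (sterol) and -0.18 to -0.098 (fatty acid), and the difference, -0.14, from -0.16 to -0.091. Between controls 24 members passed, 29 with the GC trend removed, and 19 to 27 with a library left out, where the sterol median, 0.28, ran from 0.12 to 0.24, the fatty acid median from -0.15 to 0.0056 and the difference, 0.36, from 0.16 to 0.33. That difference was 0.28 with STARD4 in the sterol branch or CYP51A1 left out, 0.50 with LPIN1 in the fatty acid branch, whose median was then -0.22, and 0.44 with the GC trend removed and the block. For the difference between lines, 2 members reached the threshold of the methods with no filter, 1 with DESeq2 or the GC trend removed, and 0 to 3 with a library left out. Its sterol median, -0.29, was -0.069 with the GC trend removed, -0.075 with the block too and -0.46 to -0.098 with a library left out. Its fatty acid median, -0.15, was -0.00060, 0.0031 and -0.25 to 0.0088, and -0.039 with LPIN1, and the difference, -0.14, was -0.25 with LPIN1 and -0.22 to -0.054.

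Deviations of same-numbered samples correlated at -0.58, -0.59 and -0.066 in KELLY, -0.035, 0.098 and 0.18 in SK-N-AS, and -0.37, 0.12 and -0.13 between controls. These deviations hold the GC lean of each library, so the correlations cannot show whether the replicate numbers pair the samples. With the replicate block, edgeR calls over all genes went from 74 rises and 32 falls to 146 and 162 in SK-N-AS. In KELLY they went from 1 and 0 to 0 and 0.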
